A study of Homo sapiens with 8 samples.

Results

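Expression of 9 BCL2 family genes and of TNFRSF10B, which encodes death receptor 5, was examined in 2 renal cell carcinoma (RCC) lines cultured with or without branched-chain amino acids (BCAA). The 10 genes were taken as the rows of both expression tables whose Ensembl identifiers carry these symbols in GENCODE 29. They comprise the pro-survival genes BCL2, BCL2L1 and MCL1, the effectors BAX and BAK1, the BH3-only genes BCL2L11, PMAIP1, BBC3 and BID, and the receptor gene TNFRSF10B. These are 10 of the 27776 genes listed in either table, and all 10 were listed in both.

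BCL2 family proteins set whether the mitochondrial outer membrane stays intact. BAX and BAK1 form pores in it, pro-survival proteins hold them in check, and BH3-only proteins bind pro-survival proteins or activate BAX and BAK1 directly. Death receptor 5 binds the ligand TRAIL (gene TNFSF10) at the cell surface and starts apoptosis through caspase-8, which cleaves BID and so joins the receptor route to the mitochondrial one. PMAIP1 (NOXA), BBC3 (PUMA) and TNFRSF10B are known targets of the amino acid and endoplasmic reticulum stress factors ATF4 and CHOP (gene DDIT3).

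769-P and CAKI-1 are established human RCC lines, the first from a primary tumor and the second from a metastasis. RNA was sequenced after 16 hours in BCAA-depleted medium, either left as it was or with 0.38 mM leucine, 0.38 mM isoleucine and 0.17 mM valine added back. The depleted medium was based on RPMI with dialyzed serum, in all 4 groups. The study otherwise kept 769-P in RPMI and CAKI-1 in MEM. The base medium therefore changed for CAKI-1 alone, which cannot be told apart from a difference between the lines. There were 2 libraries per group and 8 in all, and nothing in the sources used here says whether the 2 came from separate cultures, so p-values measure only the spread between libraries, which may be technical.

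The tables give a normalized value per gene, which is reads divided by a size factor per library. Reads on listed genes ranged from 30979773 to 64256834 per library. In 769-P both libraries with BCAA were deeper (55829324 and 64256834 reads) than both without (39062721 and 40130258), so that depth and condition cannot be told apart there, while in CAKI-1 the depths overlapped. The 10 genes had between 1255 and 27236 reads per library in 769-P and between 99 and 21349 in CAKI-1, and all 10 passed the filter of a mean value of at least 1. Of the renal markers, PAX8 was between 8700 and 23271 and KRT8 between 4953 and 23226 over the 8 libraries, whereas LHX1 did not exceed 44.0. CA9 was listed in neither line, and PAX2 was listed in 769-P alone. The leukocyte gene PTPRC reached at most 4.5 and the endothelial gene PECAM1 at most 10.3 in 769-P, and neither was listed in the CAKI-1 table. As these are bulk samples, fewer cells with a transcript and less transcript per cell cannot be told apart.

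Which of the 10 genes responded to BCAA was asked first. In 769-P, 6 of 10 passed the test, 1 higher with BCAA (BAK1) and 5 lower (BCL2L1, PMAIP1, BBC3, BID and TNFRSF10B), against a background of 38.4% of all 22391 genes tested, 20.3% higher and 18.2% lower. In CAKI-1, 3 of 10 passed, all lower with BCAA (BCL2L1, BCL2L11 and BBC3), against 19.9% of 21347 genes tested, of which 10.8% were higher and 9.05% lower. The count of 0 higher in CAKI-1 from limma was 0 also at an unadjusted p under 0.05, and 0 by edgeR and by DESeq2 on the recovered reads. BBC3 and BCL2L1 were lower in both lines. The median log2 fold change over the 10 genes was -0.10 in 769-P and -0.09 in CAKI-1, beside -0.02 and -0.01 over all genes tested. In each line 8 of the 10 genes had values that did not overlap between conditions, 3 higher and 5 lower with BCAA, but so did 67% of all genes in 769-P (33.6% higher and 33.5% lower) and 57.7% in CAKI-1 (28.9% and 28.8%). Fold changes are on the log2(value + 1) scale, with BCAA over without, and adjusted p-values come from limma with Benjamini-Hochberg adjustment over all genes tested. An exact permutation test of 2 libraries against 2 could not have reached the 0.05 threshold for any single gene.

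**Figure D1:**
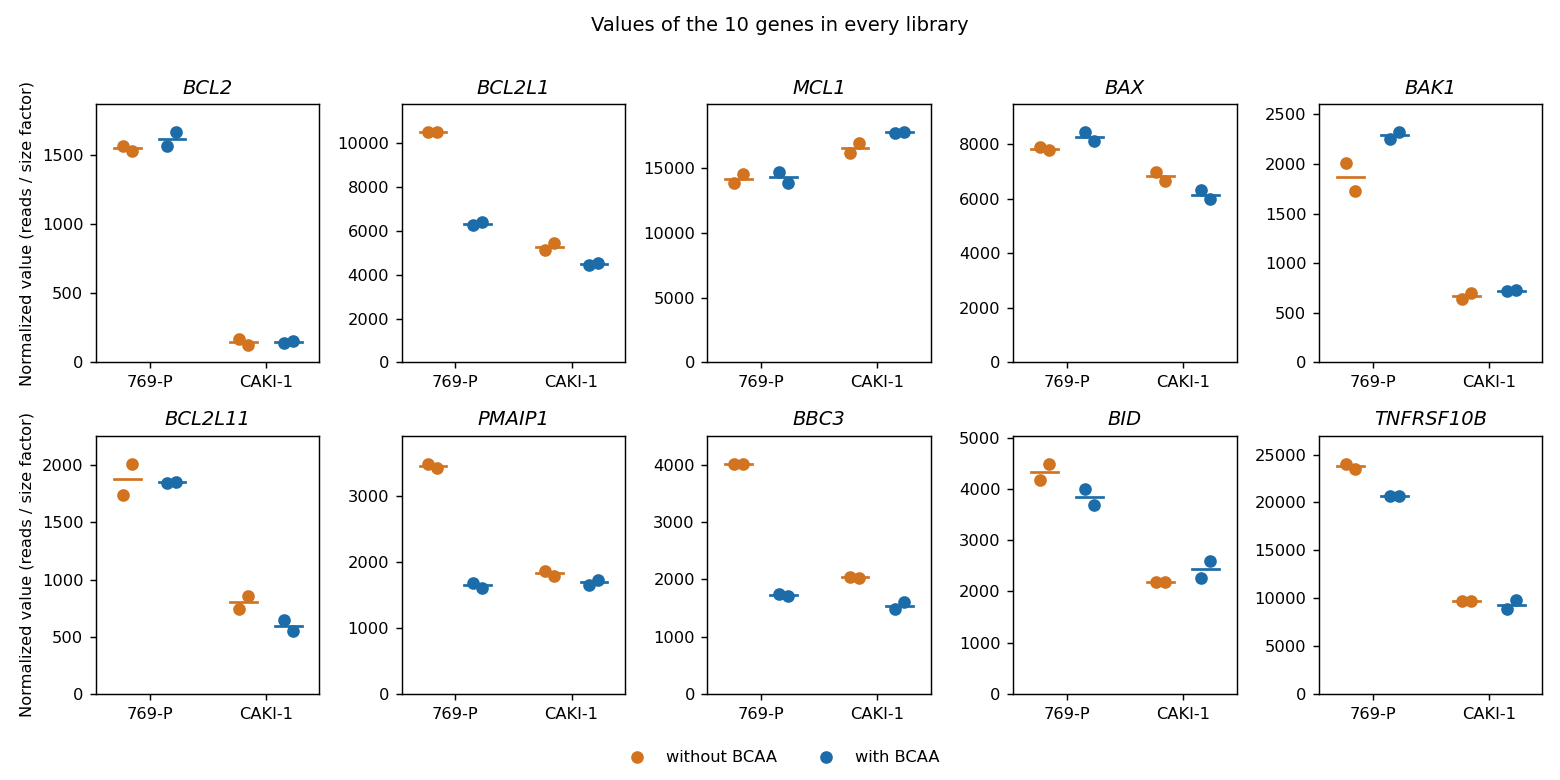
Normalized value (reads divided by size factor, y axis starting at 0) of the 10 genes in each of the 8 libraries, grouped by cell line; points are libraries and bars are the means of 2. BBC3, PMAIP1 and BCL2L1 in 769-P show the widest gaps between conditions, BBC3 lying at 1703 and 1741 with BCAA and at 4011 and 4019.7 without.

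Among the 3 pro-survival genes of the set, BCL2L1, which encodes BCL-XL (chr20:31664452-31723989, GRCh38, minus strand), was the only one called. In 769-P it was at 6281 and 6392 with BCAA and at 10519 and 10511 without. Libraries of a condition lay close together and far from the other, and the mean with BCAA was 60.3% of that without (log2 fold change -0.73, SE 0.04, adjusted p = 6.6e-08). In CAKI-1 it was at 4433 and 4559.8 with BCAA and at 5131 and 5433 without, again without overlap. The difference was smaller there, at -0.23 (SE 0.06, adjusted p = 0.017), and the call was lost when any 1 of the 4 CAKI-1 libraries was left out (adjusted p from 0.12 to 0.26) and under median centring (0.06). Exons of ABALON on the opposite strand cover 1424 of its 3314 exon bases, and that gene had up to 136 reads in a 769-P library and 63 in a CAKI-1 library. The use of strand in counting is not known, so reads over those bases cannot be assigned to either gene.

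MCL1, a short-lived pro-survival protein (chr1:150574551-150579738), did not pass in either line. It was at 14661 and 13867 with BCAA and at 13842 and 14517 without in 769-P, where the conditions overlapped (0.01, 95% interval -0.09 to 0.11, adjusted p = 0.91). In CAKI-1 it was at 17716 and 17764 with BCAA and at 16171 and 16922 without. Both libraries with BCAA were above both without, by 0.10 (-0.02 to 0.22), which did not pass (adjusted p = 0.23). Differences in MCL1 of more than 0.22 on the log2 scale lie outside both intervals.

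BCL2 itself (chr18:63123346-63320128) did not pass in either line either. It was at 1570.3 and 1668 with BCAA and at 1566 and 1535 without in 769-P (0.06, -0.08 to 0.20, adjusted p = 0.50). In CAKI-1 it was at 139 and 153 with BCAA and at 173 and 127 without, from 99 to 184 reads, and the conditions overlapped. The interval there, -0.45 to 0.40 around -0.02 (adjusted p = 0.95), was the widest of the 10 genes in either line.

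Of the effectors, BAK1 was higher with BCAA in 769-P. BAK1 (chr6:33572547-33580293) was at 2255 and 2321 with BCAA and at 2005 and 1723 without in 769-P, a mean 1.23-fold higher with BCAA (0.30, SE 0.07, adjusted p = 0.0061). The 2 libraries without BCAA were the more spread, and the call held without 1 of them (replicate 1, adjusted p = 0.039) but was lost without the other (0.12), without replicate 1 with BCAA (0.24) and without replicate 2 with BCAA (0.28). Quantile normalization also ended it (adjusted p = 0.12). In CAKI-1 BAK1 was at 721 and 726 with BCAA and at 643 and 703 without (0.11, -0.10 to 0.31, adjusted p = 0.49).

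BAX (chr19:48954815-48961798) did not pass in either line, and its values lay on opposite sides. In 769-P it was at 8441 and 8103 with BCAA and at 7882 and 7792 without (0.08, -0.02 to 0.17, adjusted p = 0.20). In CAKI-1 it was at 6329 and 5973 with BCAA and at 6985 and 6666 without (-0.15, -0.28 to -0.02, adjusted p = 0.10), which passed under upper-quartile scaling (0.044) and with the spread taken from all 8 libraries (0.043). The libraries of the conditions did not overlap in either line, higher with BCAA in 769-P and lower in CAKI-1.

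The largest differences were in BH3-only genes. BBC3, which encodes PUMA (chr19:47220822-47232766, minus strand), was at 1741 and 1703 with BCAA and at 4011 and 4019.7 without in 769-P. Its mean without BCAA was 2.33-fold that with BCAA (-1.22, SE 0.05, adjusted p = 6.2e-09), which ranked 3194 of 22391 genes by the size of the change. In CAKI-1 it was at 1475 and 1603 with BCAA and at 2044 and 2023 without. The conditions did not overlap, and the mean was 1.32-fold higher without BCAA (-0.40, SE 0.07, adjusted p = 0.0022), although no CAKI-1 call for this gene survived leaving out 1 library (adjusted p from 0.056 to 0.19).

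PMAIP1, which encodes NOXA, the partner of MCL1 (chr18:59899948-59904306, plus strand), was at 1687 and 1605 with BCAA and at 3492 and 3423 without in 769-P. Its mean without BCAA was 2.1-fold that with BCAA (-1.07, SE 0.06, adjusted p = 2.9e-08). In CAKI-1 the values lay close together, at 1653 and 1733 with BCAA and at 1869 and 1791 without. Both libraries with BCAA were below both without, but the difference of -0.11 (-0.27 to 0.04) did not pass (adjusted p = 0.31). Normalized values of this gene are not compared between the lines, which were normalized separately and were not tested against each other.

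BCL2L11, which encodes BIM (chr2:111119378-111168447, plus strand), was lower with BCAA in CAKI-1 and not in 769-P. In CAKI-1 it was at 642 and 553 with BCAA and at 741 and 859.6 without, a mean with BCAA of 74.7% of that without (-0.42, SE 0.11, adjusted p = 0.018). The call was lost when any 1 of the 4 libraries was left out (adjusted p from 0.17 to 0.30) and under quantile normalization (0.077). In 769-P it was at 1845 and 1857 with BCAA and at 1740.2 and 2014 without, and the first pair lay between the second (-0.02, -0.18 to 0.14, adjusted p = 0.89). Exons of MIR4435-2HG on the opposite strand cover 727 of its 6658 exon bases and that gene had up to 2080 reads in a 769-P library and 1193 in a CAKI-1 library. Whether counting used strand is not given in the sources used here, so reads of the 2 genes over those bases cannot be told apart.

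BID (chr22:17734138-17774770, minus strand), the substrate of caspase-8, was at 3988 and 3675 with BCAA and at 4174 and 4492 without in 769-P (-0.18, SE 0.06, adjusted p = 0.031). That call was lost when any 1 of the 4 libraries was left out (adjusted p from 0.14 to 0.34), under median centring (0.15), with no filter on low values (0.093) and with the spread taken from all 8 libraries (0.064). In CAKI-1 BID was at 2254 and 2599 with BCAA and at 2176 and 2188 without (0.15, -0.02 to 0.32, adjusted p = 0.21). The 2 libraries without BCAA were close together and both below those with BCAA, the reverse of the order in 769-P.

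TNFRSF10B, the receptor gene on chromosome 8, was lower with BCAA in 769-P. It was at 20651 and 20712 with BCAA and at 24061 and 23518 without, a mean with BCAA of 86.9% of that without (-0.20, SE 0.04, adjusted p = 0.0011). The conditions were clear of each other, but with only 3 libraries the call was lost whichever was left out (adjusted p from 0.061 to 0.092). In CAKI-1 it was at 8899 and 9779 with BCAA and at 9702 and 9756 without, and the conditions overlapped (-0.06, -0.19 to 0.07, adjusted p = 0.55). It shares 67 exon bases with RHOBTB2 on the opposite strand, which had up to 1181 reads in a 769-P library.

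In CAKI-1, leaving out any 1 library left 0 genes called by limma in the whole table, members and others, with 4235 to 5687 genes at an unadjusted p under 0.05, as did limma without its intensity trend (4796 genes at an unadjusted p under 0.05), whereas edgeR called 4397 genes and DESeq2 3790 genes over all 4 libraries. In 769-P between 2968 and 3699 genes were still called with 3 libraries, and BBC3, PMAIP1 and BCL2L1 were among them each time, with adjusted p from 0.016 to 0.030. These fits assume that the lone library of a condition varies like the others.

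The sequence before the start of these 3 genes, the ones with the largest differences in 769-P, is shown because the factors known to act on them are themselves among the genes measured. The stretches are the bases before both the RefSeq and the GENCODE 29 start (RefSeq sequence, GRCh38.p14), printed 5′ to 3′ on the strand of the gene, at chr18:59899746-59899947 on the plus strand for PMAIP1, chr19:47232767-47232917 on the minus strand for BBC3 and chr20:31723990-31724213 on the minus strand for BCL2L1. Capitals mark a match to the CRE half-site, the core letters bound by ATF and CREB factors.
PMAIP1: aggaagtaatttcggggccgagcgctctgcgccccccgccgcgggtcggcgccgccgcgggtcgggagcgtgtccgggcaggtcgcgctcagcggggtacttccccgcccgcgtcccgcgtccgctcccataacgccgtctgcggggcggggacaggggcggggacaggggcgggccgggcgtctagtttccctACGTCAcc
BBC3: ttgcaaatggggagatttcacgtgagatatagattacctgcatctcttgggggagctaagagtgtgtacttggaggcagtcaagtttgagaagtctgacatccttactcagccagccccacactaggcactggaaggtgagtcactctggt
BCL2L1: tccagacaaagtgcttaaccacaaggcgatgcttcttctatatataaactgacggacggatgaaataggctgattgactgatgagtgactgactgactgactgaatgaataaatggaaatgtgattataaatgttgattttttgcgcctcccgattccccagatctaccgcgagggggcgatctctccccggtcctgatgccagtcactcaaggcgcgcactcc
The CRE half-site was searched as TGACGT and its reverse complement ACGTCA. The composite element of C/EBP and ATF factors was searched as TGATGNAA and its reverse complement. Matches were allowed to overlap. Over the 250 bases before the RefSeq start, entries were used for 8 of the 10 genes, with 13 entries in all. Several entries of BID overlap each other, so the 13 are not all separate stretches. MCL1 and TNFRSF10B were not searched, so the results below do not cover them. PMAIP1 held a CRE half-site, 56 bases before its RefSeq start (chr18:59899940-59899945), in the reverse orientation. It was the 1 entry of the 13 with that motif, which 7.1% of all 35116 promoters of the same length hold. No entry held TGATGNAA, which 3.14% of all promoters hold. A match is a run of letters and not a bound site, and no match says only that the letters are not in this window.

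Whether the BCAA effect differed between the lines was assessed with an interaction term fitted over the 8 libraries. It passed for 5 of the 10 genes, against 21.1% of 19406 genes tested (10.9% with the effect further up in 769-P and 10.1% further down). PMAIP1 differed the most, by -0.96 (95% interval -1.14 to -0.77, adjusted p = 4.5e-06), as it was 2.1-fold lower with BCAA in 769-P and within -0.27 to 0.04 in CAKI-1. BBC3 differed by -0.82 (-1.0 to -0.63, adjusted p = 1.7e-05) and BCL2L1 by -0.50 (-0.65 to -0.35, adjusted p = 1.7e-04), both lower with BCAA in both lines and more so in 769-P. These 3 differences passed under every leave-one-out fit.

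BAX and BID were the other two genes whose effects differed, each with the opposite sign in the lines. The difference was 0.23 for BAX (0.07 to 0.38, adjusted p = 0.037) and -0.33 for BID (-0.55 to -0.11, adjusted p = 0.035), while neither line's own BAX difference and not that of BID in CAKI-1 passed. Each call was lost in 5 of the 8 leave-one-out fits. For BAX these were the fits without 769-P with BCAA replicate 1 (adjusted p = 0.11), 769-P without BCAA replicate 1 (0.098) or 2 (0.12), CAKI-1 with BCAA replicate 2 (0.083) and CAKI-1 without BCAA replicate 1 (0.14), and median centring also ended it (0.081). For BID they were those without 769-P with BCAA replicate 2 (0.15), 769-P without BCAA replicate 2 (0.15), CAKI-1 with BCAA replicate 2 (0.11) and CAKI-1 without BCAA replicate 1 (0.088) or 2 (0.075).

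The difference for BCL2L11, 0.40 (0.10 to 0.70), missed the threshold with an adjusted p of 0.055 and passed by edgeR (0.035 with TMM) and DESeq2 (0.041), and narrowly under 3 other settings (0.04 to 0.049). It also passed without 769-P without BCAA replicate 2 (0.042), CAKI-1 with BCAA replicate 1 (0.022) or CAKI-1 without BCAA replicate 1 (0.032). TNFRSF10B differed by -0.14 (-0.29 to 0.01, adjusted p = 0.19) and passed in the fit without CAKI-1 with BCAA replicate 1 (-0.21, adjusted p = 0.027). For BAK1 the interval was -0.06 to 0.45, for MCL1 -0.24 to 0.05 and for BCL2 -0.31 to 0.49, and differences between the lines within these bounds are not excluded.

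**Figure D2:**
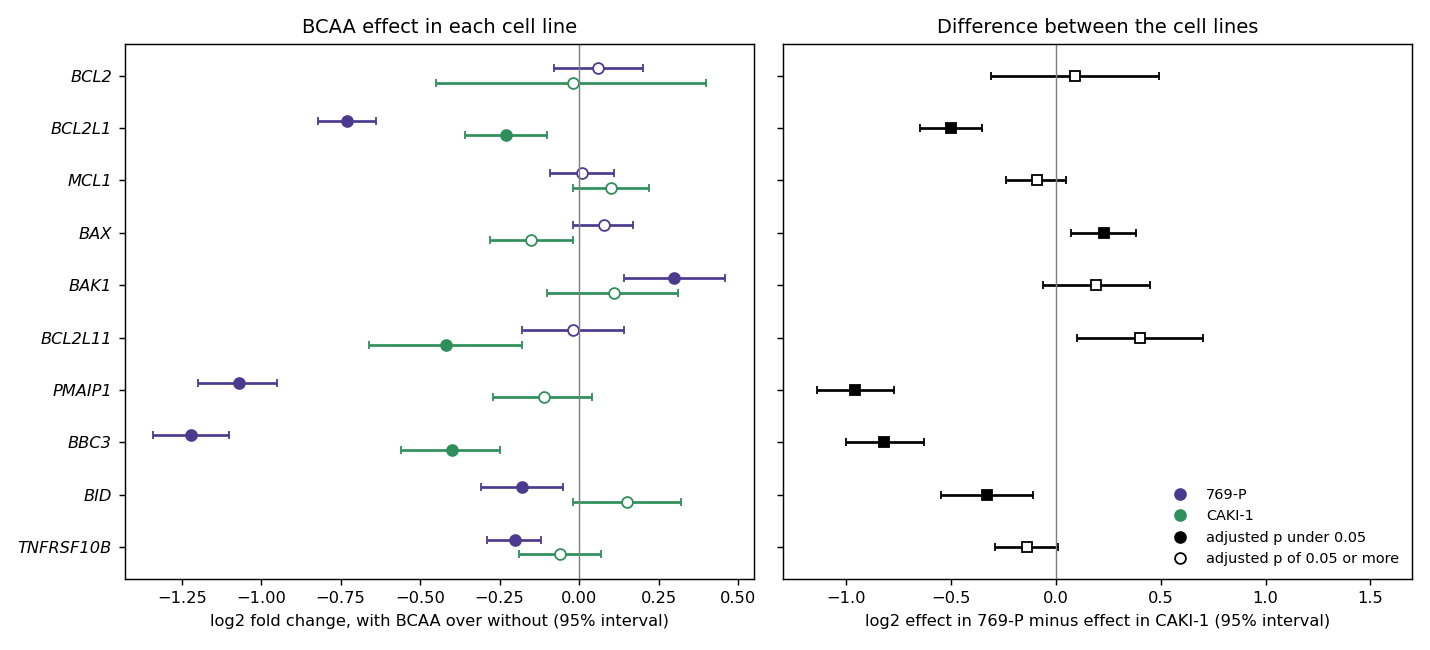
Left, log2 fold change with BCAA over without for the 10 genes in each line, and right, the effect in 769-P minus that in CAKI-1; points are limma estimates, bars 95% intervals, and filled symbols have an adjusted p under 0.05. BBC3 (-1.22) and PMAIP1 (-1.07) in 769-P lie farthest from 0, and their differences between the lines (-0.82 and -0.96) are the largest.

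To compare the genes with each other, recovered reads were divided by the merged exon length of each gene and by the reads on listed genes, which gives a level per length (RPKM). The order depends on the length used. By merged exon length TNFRSF10B was the most abundant in 769-P, at 83.1 ± 1.37 (SD, n = 2) with BCAA and 94.5 ± 2.29 without. MCL1 followed at 67.6 ± 1.69 with BCAA and its range overlapped that of BAX (66.3 ± 0.964), as it did with that of BCL2L1 without BCAA (66.5 ± 1.7 against 65.0 ± 0.561). Other neighbours in the order did not overlap in their ranges. BCL2L1 came next below BAX with BCAA, at 39.7 ± 1.06. By the length of the longest transcript, BAX (128 and 125) stood above TNFRSF10B (102 and 105) with BCAA, the pair overlapped without it (120 and 117 against 120 and 116), and BCL2L1 (83.1 and 82.1) stood above MCL1 (72.6 and 75.2) without BCAA.

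By merged exon length the order of the middle genes was not the same in the 2 conditions of 769-P. With BCAA it ran BAK1 (21.5), BID (17.9), PMAIP1 (15.3) and BBC3 (11.2), and without BCAA it ran PMAIP1 (31.7), BBC3 (25.9), BID (20) and BAK1 (17.3), in RPKM. PMAIP1 and BBC3 thus stood above BID and BAK1 without it and below them with it. By the longest transcript both were below BID and BAK1 with BCAA too, but without it BBC3 (45.0 and 44.6) was above PMAIP1 (36.9 and 35.8), which overlapped BID (34.5 and 36.7). BCL2L11 (5.77 and 5.78) and BCL2 (2.85 and 2.70) were the least abundant in both conditions.

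In CAKI-1 the most abundant of the 10 by merged exon length was MCL1, at 103 ± 0.612 with BCAA and 95.3 ± 2.5 without, followed by BAX (60.6 and 66.5), TNFRSF10B (46.1 and 47.5), BCL2L1 (34.6 and 40.1) and PMAIP1 (19.3 and 20.6). BCL2 was the least abundant, at 0.316 with BCAA and 0.322 without, beside 2.85 and 2.70 RPKM in 769-P. BID (13.9) was above BBC3 (12.3) with BCAA, and BBC3 (16.1) was above BID (12.4) without. No neighbours overlapped in their ranges in CAKI-1 by this length. By the longest transcript BAX (130 and 123) was above MCL1 (104 and 108) without BCAA, and the pair overlapped with it (118 and 112 against 114 and 115).

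The pro-survival sum covers BCL2, BCL2L1 and MCL1 alone, without other pro-survival genes such as BCL2L2. As a share of this summed RPKM by merged exon length, MCL1 made up 62.3% and 60.5% with BCAA and 48.9% and 50.1% without in 769-P. The rest was nearly all BCL2L1, with 35.2% and 36.8% against 49.0% and 47.9%. In CAKI-1 MCL1 made up 75.0% and 74.5% with BCAA and 70.3% and 70.1% without, and the conditions did not overlap in either line. The summed pro-survival level was 110 in both 769-P libraries with BCAA and 133 and 135 without, and in CAKI-1 it was between 133 and 139 in all 4 libraries. By the longest transcript BCL2L1 (51.9% and 50.8%) was a larger share than MCL1 (45.4% and 46.6%) in 769-P without BCAA.

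The summed level of the 4 BH3-only genes was 50.8 and 49.4 RPKM with BCAA and 82.9 and 83.7 without in 769-P, and 45.9 and 49.7 with and 52.6 and 51.6 without in CAKI-1. BID was the largest share of it with BCAA in 769-P (36.2% and 35.0%) and PMAIP1 the largest without (38.8% and 37.3%). In CAKI-1 PMAIP1 was the largest in every library, between 38.9% and 40.9%. These ranks held for merged exon length. By the longest transcript BBC3 was the largest without BCAA in 769-P (36.5% and 35.7%) and in CAKI-1 (36.0% in both libraries), and BID the largest with BCAA in 769-P (42.5% and 41.2%) and in CAKI-1 (33.7% and 35.8%). The effectors summed to 87.9 and 87.6 with BCAA and 81.5 and 77.3 without in 769-P, with BAX between 74.9% and 79.5% of it. In CAKI-1 their sum lay the other way, at 70.4 and 67.3 with BCAA and 75.7 and 72.6 without. All of these shares are of RNA and are descriptions with no test.

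**Figure D3:**
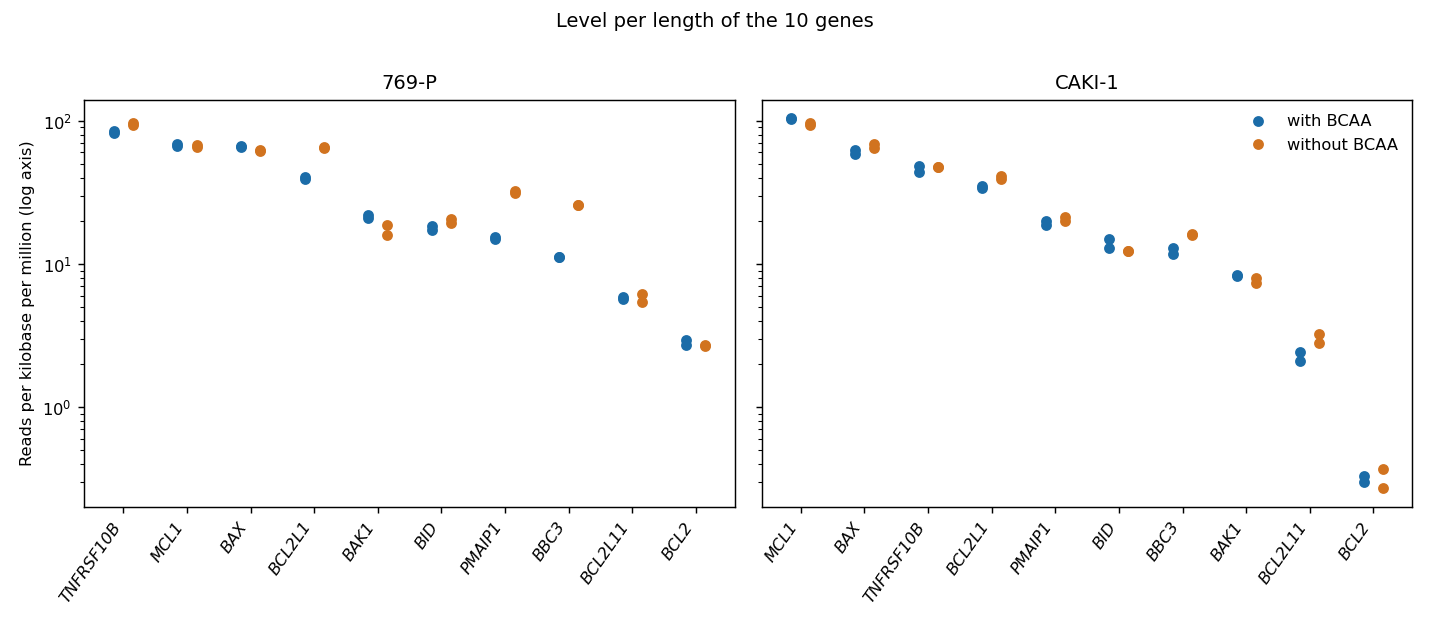
Level per length in RPKM (reads scaled to merged exon length and to the reads on listed genes, log axis) for the 10 genes in 769-P (left) and CAKI-1 (right), ordered by the level with BCAA in each line; points are libraries. By this length TNFRSF10B leads in 769-P (83.1 with BCAA) and MCL1 in CAKI-1 (103), whereas by the longest transcript BAX leads in 769-P with BCAA and in CAKI-1 without; BCL2 is last in both lines.

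Other genes of the pathway were followed in 8 lists of 64 genes, 61 of which were tested in each line. In 769-P, 19 of them were higher and 22 lower with BCAA, which is 67.2% called beside 38.4% of all genes. In CAKI-1, 11 were higher and 16 lower, 44.3% called beside 19.9%. Over all genes tested, 20.3% were higher and 18.2% lower in 769-P, and 10.8% and 9.05% in CAKI-1. The counts of each list below stand beside these shares. The lists were chosen with results of these data known, so that all such shares are a description. In CAKI-1 the calls named in the lists that follow were each lost when any 1 library was left out, as were those of the whole table.

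The transcription factors known to act on the 10 genes were mostly lower with BCAA, 6 of 9 in 769-P and 7 of 9 in CAKI-1, with 1 higher in each. Of all genes tested, 18.2% were lower in 769-P and 9.05% in CAKI-1. The median log2 fold change of these factors was -0.75 in 769-P and -0.43 in CAKI-1, beside -0.02 and -0.01 over all genes tested. DDIT3, which encodes CHOP, was at 242 and 261 with BCAA and at 1980 and 1815 without in 769-P (-2.91, adjusted p = 4.2e-10), and at 486 and 584 against 1154 and 1167 in CAKI-1 (-1.12, adjusted p = 2.6e-05). ATF4, which induces it, was at 15887 and 16581 against 32276 and 31461 in 769-P (-0.97, adjusted p = 3.9e-09) and differed by -0.43 in CAKI-1 (adjusted p = 0.00025). The difference between the lines was -1.79 for DDIT3 (adjusted p = 1.3e-06) and -0.55 for ATF4 (adjusted p = 4.8e-05). Those for BBC3 (-0.82) and PMAIP1 (-0.96) had the same direction, and that for TNFRSF10B (-0.14) was not called. In CAKI-1, where DDIT3 was lower with BCAA, PMAIP1 (-0.11) and TNFRSF10B (-0.06) were not called. Whether the factors acted on these genes was not tested.

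ATF3 (-2.99, adjusted p = 7.9e-11) and CEBPB (-2.18, adjusted p = 1.5e-10), further stress factors of the bZIP type, were also far lower with BCAA in 769-P. In CAKI-1 they were lower too, ATF3 at -0.48 (adjusted p = 0.0089) and CEBPB at -0.44 (adjusted p = 0.019). FOXO1, which acts on BCL2L11, was lower in CAKI-1 (-0.62, adjusted p = 0.043, a call lost with either other pseudocount) and not called in 769-P (-0.06, adjusted p = 0.61). FOXO3, of the same list, was lower in both lines, at -0.66 in 769-P (adjusted p = 8e-06) and -0.30 in CAKI-1 (adjusted p = 0.0097). BCL2L11 itself was at -0.02 in 769-P, and a link to either factor was not tested. E2F1, the cell cycle factor, went the other way and was higher with BCAA in both lines (1.05, adjusted p = 1.7e-07, and 2.12, adjusted p = 3.2e-07).

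Of CDKN1A and MDM2, which were set beside BBC3, PMAIP1 and TNFRSF10B for comparison, CDKN1A was lower with BCAA in both lines, at -0.51 in each (adjusted p = 4.3e-07 and 1.2e-04). The cell cycle inhibitor it encodes had an interaction term of 0.00 (SE 0.07, adjusted p = 1.0), beside -0.82 for BBC3 and -0.96 for PMAIP1. MDM2, which encodes a ubiquitin ligase, was lower in 769-P (-0.16, adjusted p = 0.023), a call that was lost without any 1 library and under median centring, and was at -0.01 in CAKI-1 (adjusted p = 0.93).

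Among 14 other BCL2 family genes, of which 13 were tested, 6 were lower and 2 higher with BCAA in 769-P, and 4 lower and 2 higher in CAKI-1, with medians of -0.18 and -0.01. BCL2L2, a pro-survival gene outside the set, was lower in 769-P (-0.48, adjusted p = 0.0005) and not called in CAKI-1 (-0.19, adjusted p = 0.17). BNIP3L, a mitophagy receptor, was lower in both lines (-0.90, adjusted p = 2.9e-08, and -0.43, adjusted p = 0.0012). The BH3-only gene BMF was lower in CAKI-1 (-0.55, adjusted p = 0.0022) and at -0.05 in 769-P (adjusted p = 0.70), a difference between the lines of 0.50 (adjusted p = 0.018). BIK (-0.90, adjusted p = 0.041), another BH3-only gene, was lower in 769-P at values under 82, and that call was lost without any 1 library, under quantile normalization and by DESeq2. BCL2L15 was higher in CAKI-1 (1.40, adjusted p = 0.026), at 40.9 and 38.3 with BCAA and 13.3 and 15.4 without, and was not called there by DESeq2.

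HRK, also a BH3-only gene, had 1 and 2 reads with BCAA and 27 and 19 without in 769-P. The ratio of normalized reads without BCAA to those with it was 23.5, with a 95% counting interval of 7.56 to 118 that covers counting error only. It was called lower (adjusted p = 0.0005), but the call was lost in 3 of the 4 leave-one-out fits. In CAKI-1 HRK was at or under 5.8 in all libraries.

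The other death receptors and ligands went in both directions in 769-P, with 4 of 8 tested higher and 2 lower with BCAA (median 0.15), and 1 of 8 was called in CAKI-1, lower. TNFSF10, which encodes TRAIL, the ligand of death receptor 5, was at 18885 and 19691 with BCAA and at 6905 and 7291 without in 769-P (1.44, adjusted p = 4.8e-10). Ligand and receptor RNA thus differed in opposite directions there, TNFRSF10B being at -0.20. In CAKI-1 TNFSF10 overlapped between conditions (-0.03, adjusted p = 0.91). TNFRSF21 (death receptor 6) was higher in 769-P (0.96, adjusted p = 2.8e-08) and TNFRSF25 (death receptor 3) lower (-0.56, adjusted p = 0.016), the latter losing its call in 3 of 4 leave-one-out fits and under quantile normalization. FAS, the receptor of FAS ligand, was lower in CAKI-1 (-0.29, adjusted p = 0.021, a call lost under median centring) and higher in 769-P (0.24, adjusted p = 0.0015).

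Among 7 adaptors and initiator caspases, 1 was higher and 3 lower in 769-P, and 1 higher and 1 lower in CAKI-1. CFLAR, which encodes the caspase-8 inhibitor FLIP, was at 9569 and 9254 with BCAA and at 14108 and 13869 without in 769-P (-0.57, adjusted p = 4.6e-07) and at -0.01 in CAKI-1 (adjusted p = 0.94). The adaptor gene TRADD was lower in both (-0.22, adjusted p = 0.025, and -0.38, adjusted p = 0.024), and FADD, the adaptor of death receptor 5, was higher in 769-P (0.22, adjusted p = 0.043), calls that were lost with 1 library fewer and, in 769-P, by DESeq2. CASP2 was higher in CAKI-1 (0.51, adjusted p = 0.00037).

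Genes of the apoptosome, executioner caspases and mitochondrial factors were the group with most genes higher with BCAA, 7 of 12 in 769-P with the other 5 not called, and 5 higher and 1 lower in CAKI-1 (medians 0.44 and 0.14). APAF1, the scaffold of the apoptosome, was higher by a like amount in both lines, 0.98 (adjusted p = 3.6e-07) and 0.92 (adjusted p = 7.1e-05). It was at 1855 and 1716 with BCAA and at 903 and 904 without in 769-P. Its partner CYCS, cytochrome c, was higher by 0.48 (adjusted p = 3.8e-06) and 0.52 (adjusted p = 8.2e-05). AIFM1, the flavoprotein released from mitochondria, was higher by 0.97 (adjusted p = 1e-08) in 769-P and 0.30 (adjusted p = 0.006) in CAKI-1, the nuclease gene DFFB was higher in 769-P (0.84, adjusted p = 0.0099) and the protease gene HTRA2 lower in CAKI-1 (-0.43, adjusted p = 0.019, lost under quantile normalization). The DFFB call was lost without any 1 library of 769-P. The genes of this list called higher with BCAA lay on the other side of 0 from BBC3, PMAIP1 and BCL2L1. HTRA2 in CAKI-1 lay on the same side as BBC3, PMAIP1 and BCL2L1. Among genes not called, DIABLO lay on that side in both lines, CASP9 in 769-P and ENDOG in CAKI-1.

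Of 6 inhibitor of apoptosis genes, 3 were higher and 1 lower in 769-P, and 1 higher and 1 lower in CAKI-1. BIRC5 (survivin), which also acts in mitosis, was higher with BCAA in both lines, by 1.75 (adjusted p = 3.5e-10) and 1.56 (adjusted p = 2.6e-07). BIRC3 (0.93, adjusted p = 1.2e-08) and BIRC2 (0.46, adjusted p = 1.5e-05), whose proteins act on tumor necrosis factor signalling, were higher in 769-P and not called in CAKI-1 (0.09 and 0.15). XIAP, which binds caspases, was lower in both (-0.26, adjusted p = 0.00078, and -0.23, adjusted p = 0.014, the latter lost under median centring).

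Genes whose proteins set the turnover of the MCL1 protein were considered because MCL1 RNA was not called in either line. Of 4, 1 was higher and 2 lower with BCAA in 769-P and 1 was called in CAKI-1. The ubiquitin ligase gene HUWE1 (-0.42, adjusted p = 0.00015) and the deubiquitinase gene USP9X (-0.26, adjusted p = 0.00092) were lower in 769-P, and each call was lost in 2 of 4 leave-one-out fits. FBXW7, another ubiquitin ligase gene, was higher in both lines (0.26, adjusted p = 0.015, and 0.30, adjusted p = 0.030), a call lost with any 1 library fewer and under quantile normalization.

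**Figure D4:**
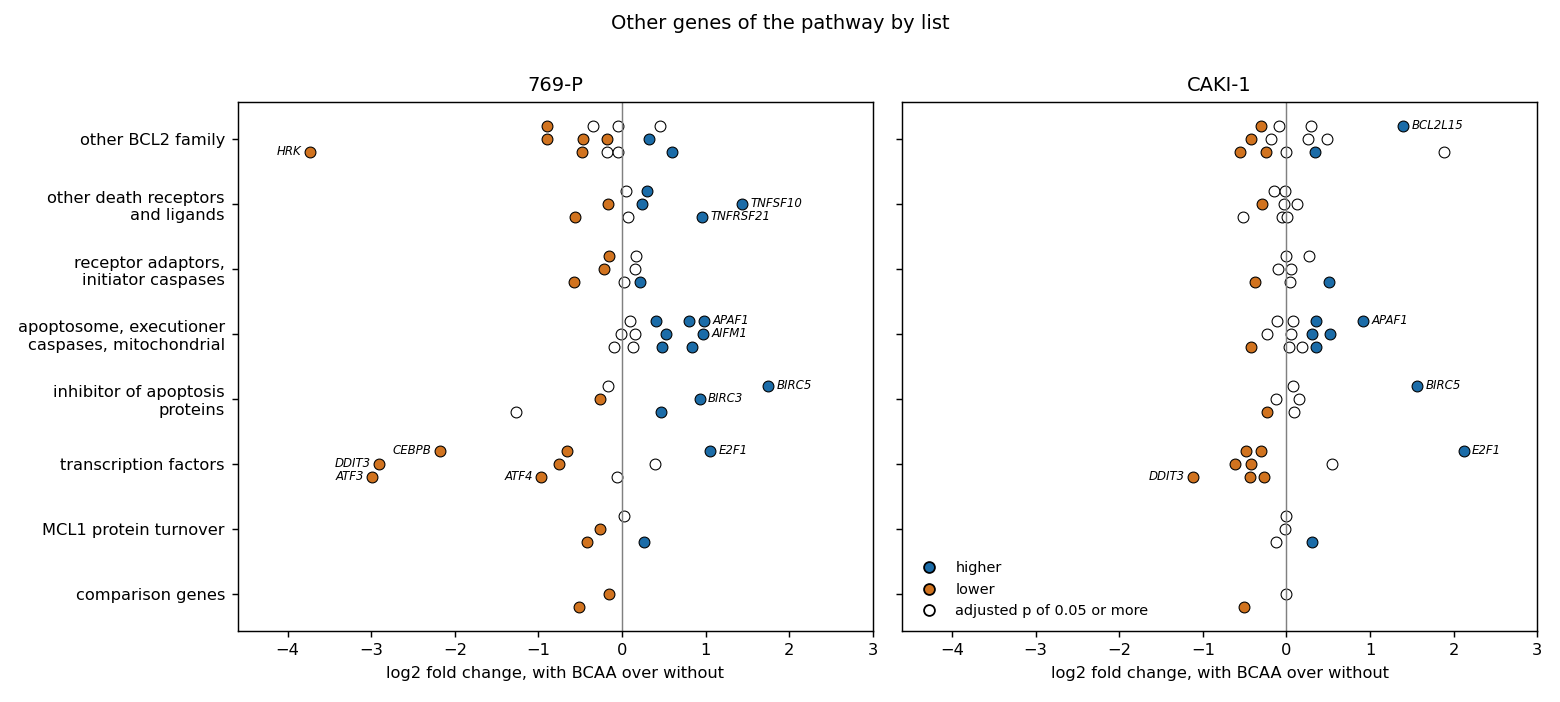
Log2 fold change with BCAA over without of the tested genes of 8 apoptosis lists in 769-P (left) and CAKI-1 (right), 1 point per gene; blue and orange points were called higher and lower by limma, white points were not called, and vertical offsets within a list only separate points. In 769-P the transcription factors reach -2.99 (ATF3) while 7 of the 12 apoptosome and caspase genes lie to the right of 0 as called genes; HRK rests on 1 and 2 reads with BCAA.

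Genes whose pattern over the 8 libraries was most like that of 3 of the members were found by the Pearson correlation of log2(value + 1), centred per cell line, among 10881 genes with a mean of at least 100 in both tables. The points share libraries, depth and the same 4 conditions, so that r describes mainly how the condition means lie, and no p is given. For BBC3 they were FAM107B (r = 0.9999), HSPA9 (0.999), which encodes a mitochondrial chaperone, and SNHG5 (0.999), a host gene of small nucleolar RNAs. SNHG5 was lower with BCAA by nearly the same amounts as BBC3, -1.19 in 769-P and -0.40 in CAKI-1, whereas FAM107B (-0.56 and -0.18) and HSPA9 (-0.45 and -0.14) were lower in the same proportion. For BCL2L1 they were PLEKHG1 (0.9985), SNHG5 (0.9981) and the ATF4 pseudogene ATF4P4 (0.9978), which can share reads with ATF4. BAX, the third by the rule although not called in either line, was most like LYPD1 (0.9848), SNX29 (0.9706) and PEX5 (0.9676).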

How the data were processed

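Reads of 8 libraries were processed by the authors and deposited as 1 table per cell line. Per the submitters' processing notes, which give no order or roles, the tools were Trim Galore, TopHat2 2.1.0, SAMtools 1.3.1, HTSeq 0.6.0, DESeq and DESeq2, with build hg38; the annotation and the use of strand are not given in the sources used here. The deposited signal is each gene's read count divided by its library's size factor, and 100% of values were whole multiples of 1 read (tolerance 0.001). The factors equal median-of-ratios factors within each table, so levels were tested only within a line. A figure legend of the study gives more replicates for its RNA sequencing than the 2 libraries per group used here. Each table holds genes whose reads over the 4 libraries sum to at least 2.

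Ensembl identifiers were matched to symbols with GENCODE 29 (25032 of 25431 in 769-P and 23881 of 24190 in CAKI-1). Genes averaging at least 1 were tested with limma 3.58.1 in R 4.3.3 (lmFit, eBayes with trend) on log2(value + 1), per line, without a replicate block, and called at a Benjamini-Hochberg adjusted p under 0.05; the difference between lines was the interaction term. The scripts were tested on simulated data. Alternatives changed the pseudocount, filter, scaling, trend, threshold, block, libraries and test (edgeR 4.0.16 and DESeq2 1.42.0 on recovered reads). Depth limits precision, and intervals of read ratios cover counting error only.

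The members and lists were chosen with earlier results of these data known. Named genes were all 10 members, up to 3 called genes with the largest change per list and line, and DDIT3, ATF4, CDKN1A and MDM2. FOXO3, beside FOXO1, and BCL2L2 were named outside this rule. Like genes were the 3 most correlated with each of the 3 members with the smallest larger adjusted p of the 2 lines. The motifs and the 3 promoters were chosen after the values were seen, and protein sequences were not used here. A gene of the lists is not reported here.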

Additional observations from a re-analysis of the deposited data

Results flagged for a closer look

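The BCAA effect differed between the cell lines, by the interaction term of limma, for 5 of the 10 genes, beside 21.1% of 19406 genes tested. The effect in 769-P minus that in CAKI-1 was -0.96 for PMAIP1, -0.82 for BBC3, -0.50 for BCL2L1, -0.33 for BID and 0.23 for BAX, each on the log2 scale. The first 3 kept their call without any 1 library, and those of BAX and BID were lost in 5 of 8 such fits.

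Among the stress factors it was -2.51 for ATF3, -1.79 for DDIT3, -1.74 for CEBPB and -0.55 for ATF4, all further down with BCAA in 769-P. E2F1 was higher with BCAA in both lines, and by more in CAKI-1 (-1.07).

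Among receptors, ligands and adaptors it was 1.48 for TNFSF10, 1.11 for TNFRSF21, 0.53 for FAS, which was called in opposite directions in the lines, and -0.56 for CFLAR. In the mitochondrial and caspase group it was 0.68 for AIFM1, 0.53 for HTRA2 and -0.36 for CASP2, and among the inhibitors 0.84 for BIRC3. In the rest of the BCL2 family it was -0.48 for BNIP3L, 0.50 for BMF and -4.02 for HRK, a fitted value that depends on the pseudocount, as HRK had 3 reads in all with BCAA in 769-P, and a difference that DESeq2 did not call. The calls of BMF (4 of 8 fits), HTRA2 (2 of 8) and CASP2 (1 of 8) were lost with 1 library left out.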

How the results depend on the processing

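In CAKI-1, leaving out 1 library or replacing the intensity trend by a common prior ended calls of every size over the whole table. Those of the 10 genes were among them. In 769-P these fits also called far fewer genes over the whole table. The loss of member calls within each line is therefore no result about the 10 genes. With 1 library left out, the members called in 769-P were 0 to 1 higher and 3 lower (1 and 5 with all libraries), those called lower in CAKI-1 were 0, and those differing between the lines were 3 to 7. Without the trend, 0 members were higher and 3 lower in 769-P, where 3658 of 22391 genes tested were called. In CAKI-1 0 members were lower and 0 genes of the whole table were called by limma, with 4796 genes at an unadjusted p under 0.05. Between the lines 3 members differed, beside 1607 of 19406 genes tested. A fold change of at least 1.5 left 0 higher and 3 lower in 769-P, 0 lower in CAKI-1 and 2 differing; an adjusted p under 0.01 left 1 lower in CAKI-1 and 3 differing; quantile normalization left 0 higher in 769-P. The cause was not tested where the construction (fewer libraries, a stricter limit) does not show it. The calls of BBC3, PMAIP1 and BCL2L1 in 769-P held under every alternative, BBC3 between -1.26 and -1.18, PMAIP1 between -1.11 and -1.03 and BCL2L1 between -0.78 and -0.69.

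Little deviation was shared by same-numbered libraries. Their deviations from their condition means correlated at -0.09 over 11855 genes in 769-P and 0.06 over 11720 genes in CAKI-1. With 2 libraries per group this cannot show whether same-numbered libraries were made together. With the replicate block 3 members differed between the lines in place of 5, as BAX (adjusted p = 0.059) and BID (0.053) missed the threshold; it changed no other count of members.

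Values near 0 changed sign. BCL2L11 in 769-P was at 0.02 with median centring, 0.00 by edgeR with TMM and from -0.12 to 0.09 with 1 library left out. BCL2 in CAKI-1 was at 0.02 with median centring, 0.03 with quantile normalization and from -0.24 to 0.19 with 1 library left out, and its difference between the lines was -0.02 with quantile normalization and from -0.13 to 0.31 with 1 left out. MCL1 in 769-P was at -0.03 with upper-quartile scaling and from -0.03 to 0.05 with 1 left out, TNFRSF10B in CAKI-1 from -0.13 to 0.01. MDM2 in CAKI-1 was at 0.03 with median centring and reached 0.10 with 1 left out. The CDKN1A difference was 0.05 with quantile normalization, 0.01 by edgeR with TMM and from -0.04 to 0.04 with 1 left out.

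With the longest transcript as length, the order of levels changed at the top in both lines and among the BH3-only genes, as given with the levels. MCL1 then made up 57.8% and 46.0% of the pro-survival members in 769-P with and without BCAA and 72.1% and 67.3% in CAKI-1. BID made up 41.8% and 28.7%, and 34.8% and 28.5%, of the BH3-only members. The lowest reads, 99 for BCL2 in CAKI-1, limit that gene the most.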
